A study of Homo sapiens with 60 samples.

Results

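The enzymes that build fatty acids from acetyl-CoA and then lengthen and desaturate them were followed here as 10 genes: the transcription factor gene SREBF1 and the enzyme genes ACLY, ACSS2, ACACA, ACACB, FASN, SCD, ELOVL6, FADS1 and FADS2. They were chosen by symbol, and each symbol matched 1 Ensembl gene among the 60675 genes of the count table. RNA sequencing was done on HepG2, a human hepatocellular carcinoma line that keeps many liver functions, 24 h after a water extract of a digestive herbal medicine was added at 20, 100 or 500 ug/mL. Extracts with 3 libraries at each dose were made from 4 single herbs (Aconiti Lateralis Radix Preparata, Bupleuri Radix, Citri Unshius Pericarpium and Cimicifugae Rhizoma) and 2 formulas (Yijung-tang and Banhasasim-tang). A further formula, Bojungikgi-tang, had 1 library at each dose, and the vehicle, 0.1% DMSO per the sample labels, had 3 libraries. The design text of the series gives 2% DMSO for the vehicle, and the difference could not be resolved. The design text also says that the top dose followed a toxicity limit where that lay below 500 ug/mL, while the labels give 500 ug/mL throughout. All groups were 1 cell line with no genetic change, and the labels do not say whether replicates came from separate cultures; p-values therefore cover the spread between these libraries only, which may be technical.

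Fatty acid synthesis starts in the cytosol, where ACLY cleaves citrate and ACSS2 activates acetate to give acetyl-CoA. The carboxylases ACACA and ACACB convert acetyl-CoA to malonyl-CoA, from which FASN assembles palmitate. ELOVL6 elongates palmitate, SCD introduces the first double bond into saturated acyl chains, and FADS1 and FADS2 desaturate polyunsaturated chains at the delta-5 and delta-6 positions. In liver, SREBF1 encodes a membrane-bound factor that, once cleaved, activates most of these genes, while its relative SREBF2 chiefly activates cholesterol synthesis.

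The libraries held between 17598646 and 30451640 counts each. Markers of the hepatocyte lineage were present throughout, with ALB between 6560 and 10200 CPM (normalised counts relative to library size), and 8 of 8 such markers were detected in all 60 libraries. The titles hold sample codes, and the first part of a code is read here as a sample set. It is 5 for Citri and Cimicifugae, 6 for Bupleuri and Aconiti, and 7 for Yijung-tang and Banhasasim-tang. Bojungikgi-tang has 8 and the vehicle B1. All 60 titles name the same batch, BatchB, and they do not say what the codes stand for. Read this way, the vehicle is a set of its own, so set and treatment cannot be told apart in any comparison with vehicle. Vehicle library 2 held 6.93 CPM of the leukocyte gene PTPRC and 5.47 CPM of the T cell gene CD3E, which were at 0 in 56 and 57 of 60 libraries. In the vehicle libraries the log2 level changed by -0.174 to -0.145 for each 10 points of gene GC content, relative to the mean over libraries, against -0.062 to 0.105 in the other libraries. Comparisons of doses within an extract, in which no vehicle library is compared, therefore come first. The vehicle libraries still enter the shared fit, its filter and its estimate of spread for each gene.

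On GRCh38 with GENCODE 29, 4 of the genes lie on chromosome 17, all on the minus strand: SREBF1 at 17810399 to 17837002, ACACA at 37084988 to 37406818, ACLY at 41866908 to 41930542 and FASN at 82078333 to 82098332. FADS1 (61799625 to 61829318, minus strand) and FADS2 (61792980 to 61867354, plus strand) overlap on chromosome 11. SCD lies on chromosome 10 at 100347124 to 100364834, ACACB on chromosome 12 at 109116595 to 109268226 and ACSS2 on chromosome 20 at 34872146 to 34927962, each on the plus strand. ELOVL6 lies on chromosome 4 at 110045846 to 110199199, on the minus strand.

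SCD and FASN were the most abundant of the 10 genes per length. On the scale of CPM per kilobase of merged exons, vehicle libraries gave a level of 392 ± 14.2 (SD, n = 3) for SCD, 152 ± 5.09 for FASN and 104 ± 2.02 for ACLY. A middle group followed at 22.8 ± 0.23 for FADS1, 22.3 ± 0.299 for ACSS2, 19.8 ± 0.943 for FADS2 and 15.1 ± 0.19 for ACACA. The order of FADS1, ACSS2 and FADS2 depends on the length used: per kilobase of longest transcript they stood at 51.6, 39.2 and 43. SREBF1 (7.74 ± 0.147), ELOVL6 (7.29 ± 0.26) and ACACB (1.84 ± 0.0232) were lowest. Per kilobase of longest transcript, SREBF1 stood at 13.4 ± 0.254 and ELOVL6 at 8.24 ± 0.294, further apart than on merged exons. Over all 60 libraries the highest level of a gene was 1.3 times its lowest for ACLY and 2.14 times for FADS2, with the other 8 genes between these values.

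The proximal promoters of SREBF1, ACLY, ACSS2 and SCD are shown because these genes stand for the regulator, both acetyl-CoA suppliers and the most abundant enzyme. Each stretch is from RefSeq on GRCh38.p14 and begins 250 bases before a listed start site. It stops before the first base annotated as untranslated region, and capitals mark matches on either strand to CCAAT, the box bound by NF-Y, or to GGGCGG, the box bound by SP1.
SREBF1 (chr17:17837003-17837236, minus strand): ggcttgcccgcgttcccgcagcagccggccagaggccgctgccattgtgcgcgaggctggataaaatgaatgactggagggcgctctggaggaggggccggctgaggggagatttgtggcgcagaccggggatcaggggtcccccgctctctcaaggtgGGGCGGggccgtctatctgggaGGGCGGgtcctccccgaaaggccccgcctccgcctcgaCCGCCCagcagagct
ACLY (chr17:41919023-41919272, minus strand): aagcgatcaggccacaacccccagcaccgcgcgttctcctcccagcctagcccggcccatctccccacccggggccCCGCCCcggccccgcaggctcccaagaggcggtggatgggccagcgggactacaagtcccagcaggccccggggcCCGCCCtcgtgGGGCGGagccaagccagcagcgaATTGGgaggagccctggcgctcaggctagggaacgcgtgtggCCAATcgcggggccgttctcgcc
ACSS2 (chr20:34874739-34874941, plus strand): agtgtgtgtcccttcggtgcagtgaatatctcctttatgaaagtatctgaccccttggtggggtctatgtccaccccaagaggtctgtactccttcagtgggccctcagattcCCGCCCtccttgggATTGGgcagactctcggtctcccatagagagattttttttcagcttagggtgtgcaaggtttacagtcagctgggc
SCD (chr10:100346983-100347123, plus strand): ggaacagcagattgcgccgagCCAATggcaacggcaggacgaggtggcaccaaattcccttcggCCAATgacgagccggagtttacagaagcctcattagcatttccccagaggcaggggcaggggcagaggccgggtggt
In 15 windows that ran from 250 bases before to 50 after the start site and belonged to 9 of the 10 genes, GGGCGG was found in 12 windows of 9 genes, against 45% of all 35116 windows of this length. CCAAT was found in 8 windows of 6 genes, against 34.6% of all windows. The sterol regulatory element core TCACNCCAC was in 0 of the 15 windows and in 1.13% of all windows, and the palindromic E-box CACGTG was in 0 of 15 and 7.26%. FASN is the gene not covered. Windows of 1 gene can overlap, and both ACLY windows share most of their bases, so window counts repeat some matches. Both strands were searched and each motif was counted on its own, so matches to different motifs may overlap. A match, or the lack of one, describes only these letters in these windows.

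The genes of fatty acid synthesis and desaturation were lower at 500 than at 20 ug/mL, most widely with Aconiti and Bupleuri. With edgeR's quasi-likelihood test and Benjamini-Hochberg adjustment over 16093 genes, called at an adjusted p under 0.05, 10 of 10 genes fell with Aconiti, 9 with Bupleuri, 7 each with Cimicifugae and Banhasasim-tang, and 2 each with Citri and Yijung-tang. None of the 60 tests called a gene higher in this fit; 2 genes with Cimicifugae, ACLY and ELOVL6, did so under the alternatives given with each. FADS2 fell with all 6 extracts, by 0.15 to 0.79 on the log2 scale, and ACSS2 fell with 5. The share of all tested genes called lower was 18.1% for Aconiti, 8.89% for Bupleuri, 19.7% for Cimicifugae, 6.52% for Banhasasim-tang, 0.92% for Citri and 2.12% for Yijung-tang, and each count of the 10 genes was above the share of its own extract. The 10 genes were chosen with earlier results of these data known, so this comparison with the shares is a description. The median log2 fold change of the 10 genes was -0.41, -0.35, -0.27, -0.18, -0.10 and -0.10 in the same order, while the median of all tested genes lay between 0.0012 and 0.0033. The number of all genes called in either direction moved with single libraries. For Citri it went from 265 to 163 without 20 ug/mL library 2 and 174 without 500 ug/mL library 3. For Yijung-tang it went from 607 to 398, 343 and 374 without 500 ug/mL library 1, 20 ug/mL library 1 and 500 ug/mL library 2. Without Yijung-tang 500 ug/mL library 3 it rose to 853. For Banhasasim-tang it went from 2433 to 1685 without 20 ug/mL library 2, and to 1775 and 1793 without 500 ug/mL library 3 and library 1. With Cimicifugae, Bupleuri and Aconiti it moved less. In bulk RNA, fewer cells of a kind and less RNA per cell cannot be told apart.

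**Figure D1:**
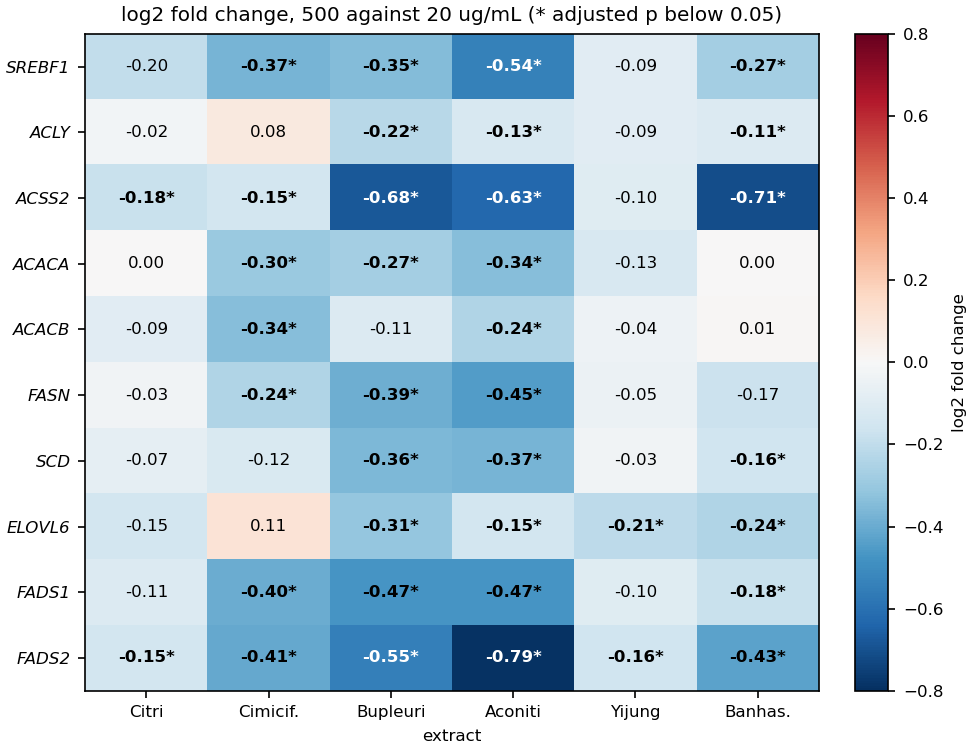
Log2 fold change of each gene (rows) at 500 against 20 ug/mL for 6 extracts (columns), with the value printed in each cell and an asterisk where the adjusted p was under 0.05. All 37 marked cells are negative, and the deepest are FADS2 with Aconiti (-0.79) and ACSS2 with Banhasasim-tang (-0.71).

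SREBF1, the regulator, fell with 4 of 6 extracts. With Aconiti its libraries read 81.6, 86.6 and 90.8 CPM at 20 ug/mL and 60.6, 56.8 and 61 CPM at 500 ug/mL. The groups did not overlap, and the log2 fold change was -0.54 (SE 0.067, edgeR adjusted p = 3.22e-09). The falls with Cimicifugae, Bupleuri and Banhasasim-tang were -0.37, -0.35 and -0.27 on the log2 scale. With Citri the libraries also did not overlap, at 81.2, 81.6 and 85.4 CPM against 67.2, 70.1 and 78.9 CPM, but the change of -0.20 did not pass (adjusted p = 0.139); it passed with no filter on low counts (adjusted p = 0.0312) and with a per-library GC trend removed (adjusted p = 0.00378). SREBF1 shares 556 exonic bases with RAI1 on the opposite strand, and RAI1's counts came to 75.8% of those of SREBF1; whether counting used the strand is not given in the sources used here.

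Of both suppliers of cytosolic acetyl-CoA, ACSS2 changed far more than ACLY. ACSS2 levels with Banhasasim-tang were 126, 128 and 126 CPM at 20 ug/mL and 79, 77.1 and 76 CPM at 500 ug/mL. That is a log2 fold change of -0.71 (SE 0.041, adjusted p = 1.39e-18), with no overlap. Bupleuri took ACSS2 from 127, 120 and 118 CPM to 78.2, 73.9 and 75.7 CPM. Aconiti took it from 115, 108 and 116 CPM to 75, 70.2 and 74.1 CPM. The 9 libraries of these 3 extracts at 500 ug/mL thus lay between 70.2 and 79 CPM, whereas every other one of the 60 libraries held at least 99.3 CPM. Cimicifugae lowered ACSS2 by 0.15 on the log2 scale. Citri lowered it by 0.18, from 126, 116 and 113 CPM to 106, 103 and 104 CPM, a call that was lost without Citri 20 ug/mL library 1 (-0.13, adjusted p = 0.16) or 500 ug/mL library 2 (-0.17, adjusted p = 0.0541), with no filter on low counts (adjusted p = 0.0569) or with only the groups compared (adjusted p = 0.0564). Yijung-tang gave -0.10 (adjusted p = 0.177). ACLY fell by 0.22 with Bupleuri, by 0.13 with Aconiti and by 0.11 with Banhasasim-tang, and the last call was lost without Banhasasim-tang 20 ug/mL library 1 (-0.08, adjusted p = 0.18), 500 ug/mL library 2 (-0.10, adjusted p = 0.0964) or 500 ug/mL library 3 (-0.11, adjusted p = 0.0603). The Banhasasim-tang ACLY call was also lost with no filter on low counts (-0.12, adjusted p = 0.158) and with only the groups compared (adjusted p = 0.169). With Cimicifugae, ACLY stood at 0.08 (adjusted p = 0.091) and passed as higher with a replicate block (0.08, adjusted p = 0.0388) and with the GC trend removed (0.09, adjusted p = 0.0366).

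**Figure D2:**
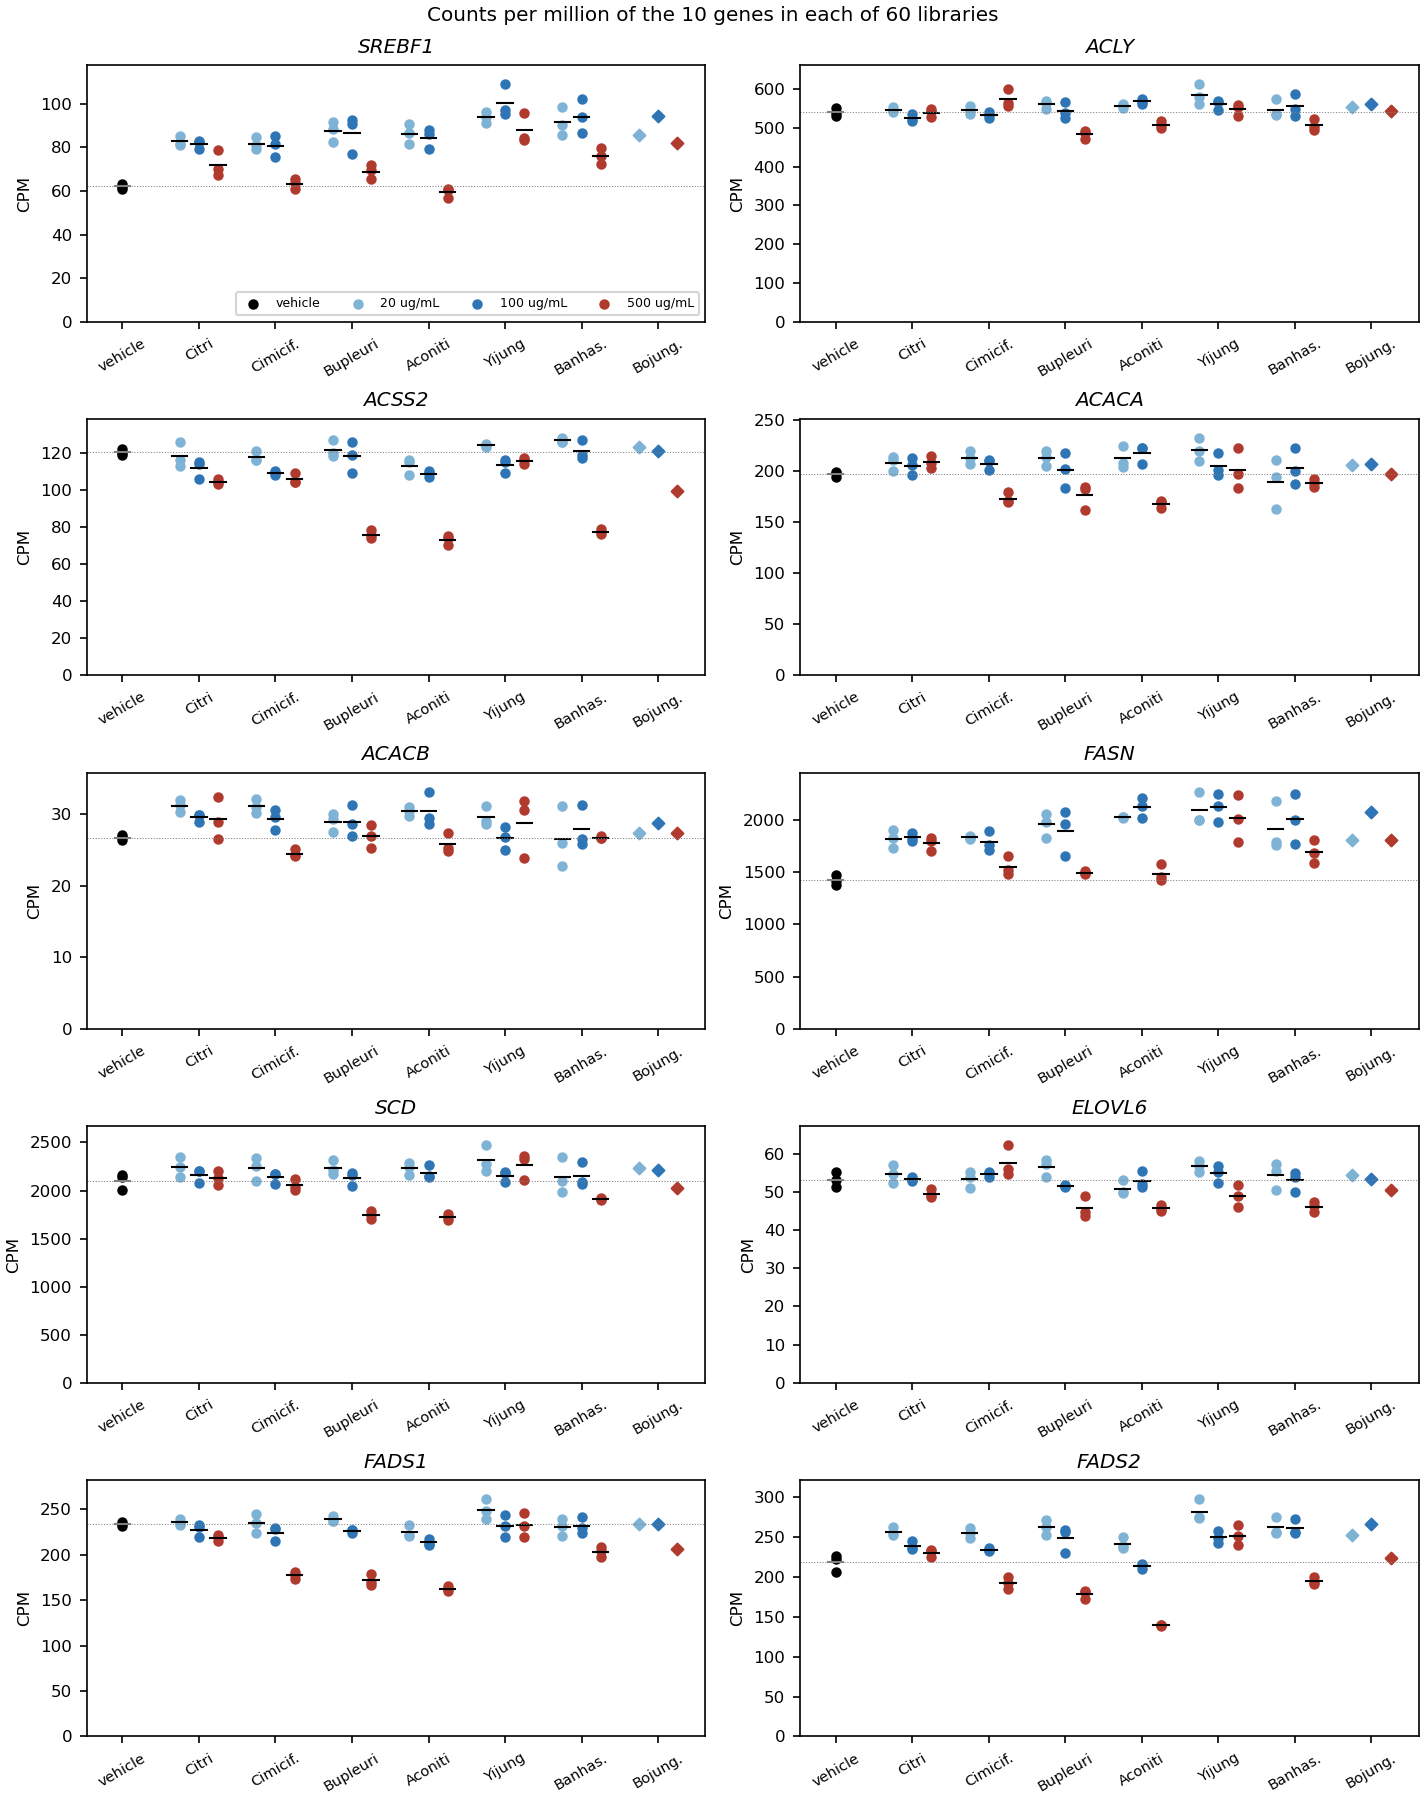
CPM (vertical axes, from 0) of each gene in every library, by vehicle and extract; points are libraries, colours are doses, black bars are means of 3 libraries, and diamonds are the single libraries of Bojungikgi-tang. At 500 ug/mL the ACSS2 libraries of Bupleuri, Aconiti and Banhasasim-tang sit between 70.2 and 79 CPM, below all other libraries, and FADS2 with Aconiti sits at 138 to 140 CPM.

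The carboxylases fell with fewer extracts. ACACA, the cytosolic carboxylase of lipid synthesis, read 224, 204 and 208 CPM at 20 ug/mL of Aconiti and 164, 169 and 170 CPM at 500 ug/mL (log2 fold change -0.34, SE 0.065, adjusted p = 3.21e-05). Cimicifugae (-0.30) and Bupleuri (-0.27) also lowered it. With Citri and Banhasasim-tang the ACACA estimate was 0.00, and its 95% intervals were -0.12 to 0.13 and -0.13 to 0.12. ACACB, whose product sits at the outer mitochondrial membrane and supplies malonyl-CoA that restrains CPT1, had the lowest level of the 10 genes. It fell with Cimicifugae from 30.9, 30.1 and 32.1 CPM to 25.1, 24.1 and 24.2 CPM (log2 fold change -0.34, SE 0.085, adjusted p = 0.00106). Its fall with Aconiti (-0.24, adjusted p = 0.0204) was lost without 500 ug/mL library 1 or 2, or 20 ug/mL library 1 or 3, with adjusted p between 0.0526 and 0.102.

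FASN, the synthase itself, fell with Aconiti, Bupleuri and Cimicifugae. Aconiti libraries read 2020, 2030 and 2030 CPM at 20 ug/mL and 1430, 1450 and 1580 CPM at 500 ug/mL, a log2 fold change of -0.45 (SE 0.076, adjusted p = 2.66e-06). The change with Bupleuri was -0.39 and that with Cimicifugae -0.24 (adjusted p = 0.0077), the latter lost without Cimicifugae 500 ug/mL library 1 (-0.21, adjusted p = 0.053). With Banhasasim-tang FASN spread over 1760 to 2180 CPM at 20 ug/mL, overlapping the 1590 to 1810 CPM at 500 ug/mL, and the change of -0.17 did not pass (adjusted p = 0.122), but did with no filter on low counts (-0.18, adjusted p = 0.00348).

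Among the enzymes that modify the chain, FADS2 showed the largest fall of any of the 10 genes. With Aconiti it went from 236, 238 and 250 CPM to 139, 138 and 140 CPM, a log2 fold change of -0.79 (SE 0.043, adjusted p = 5.58e-21), so the level fell by 42.3%. Bupleuri libraries went from 262, 252 and 271 CPM to 172, 182 and 181 CPM, and Banhasasim-tang libraries from 274, 256 and 255 CPM to 199, 193 and 191 CPM. Cimicifugae libraries went from 261, 255 and 248 CPM to 199, 192 and 185 CPM. None of these groups overlapped. The smaller falls with Citri (-0.15, adjusted p = 0.0414) and Yijung-tang (-0.16, adjusted p = 0.014) depended on single libraries. The Citri call was lost when any 1 of its 6 libraries was left out, with adjusted p between 0.0782 and 0.201. The Yijung-tang call was lost without 20 ug/mL library 1 (-0.12, adjusted p = 0.235) or 500 ug/mL library 2 (-0.13, adjusted p = 0.148), and with only the groups compared (adjusted p = 0.358). The Citri call was lost with no filter as well (adjusted p = 0.133). Ordered by mean FADS2 level at 500 ug/mL, Aconiti was lowest at 139 ± 0.967 CPM (SD, n = 3), followed by Bupleuri at 178 ± 5.07, Cimicifugae at 192 ± 6.82, Banhasasim-tang at 194 ± 3.9, Citri at 230 ± 4.78 and Yijung-tang at 251 ± 12.4. Cimicifugae and Banhasasim-tang lay within 1 SD of each other. This order runs over different sample sets, between which set and extract cannot be told apart. At 20 ug/mL the mean FADS2 level already ran from 241 CPM with Aconiti to 281 CPM with Yijung-tang.

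FADS1, the neighbouring desaturase gene, fell with 4 extracts. It went with Aconiti from 232, 220 and 222 CPM to 162, 165 and 160 CPM (log2 fold change -0.47, SE 0.04, adjusted p = 1.07e-13). Bupleuri gave -0.47, Cimicifugae -0.40 and Banhasasim-tang -0.18. Yijung-tang gave -0.10 (adjusted p = 0.178), which passed without its 500 ug/mL library 3 (-0.15, adjusted p = 0.0298). FADS1 and FADS2 are annotated on opposite strands of chromosome 11 with 490 shared exonic bases, and FADS2 shares 49 with FEN1 on the same strand. SCD fell with Bupleuri from 2320, 2210 and 2170 CPM to 1750, 1790 and 1700 CPM (log2 fold change -0.36, SE 0.049, adjusted p = 1.6e-07) and with Aconiti by 0.37 on the log2 scale. The SCD fall with Banhasasim-tang (-0.16, adjusted p = 0.0161) was lost without 20 ug/mL library 1, which alone read 2350 CPM (-0.10, adjusted p = 0.215 without it), and with only the groups compared (adjusted p = 0.103). SCD with Cimicifugae missed the threshold (-0.12, adjusted p = 0.0564) and passed it under 9 of 14 alternatives, among them the replicate block (adjusted p = 0.0171), no filter (adjusted p = 0.0349), DESeq2 (adjusted p = 0.0431), the GC trend removed (adjusted p = 0.0466) and median-ratio size factors (adjusted p = 0.047).

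ELOVL6 had another order of extracts. Bupleuri lowered it from 57.4, 58.3 and 54 CPM to 48.9, 44.8 and 43.7 CPM (log2 fold change -0.31, SE 0.049, adjusted p = 3.31e-06). Banhasasim-tang (-0.24), Yijung-tang (-0.21) and Aconiti (-0.15) also lowered it. The Yijung-tang call was lost without 500 ug/mL library 1 (-0.17, adjusted p = 0.0803) and with only the groups compared (adjusted p = 0.173), and the Aconiti call without 500 ug/mL library 1 or 3 or 20 ug/mL library 2 (adjusted p between 0.0512 and 0.1). With Cimicifugae, which lowered 7 of the other genes, ELOVL6 stood at 0.11 (adjusted p = 0.0787) and passed as higher without 500 ug/mL library 1 (0.15, adjusted p = 0.0315) and with the GC trend removed (0.12, adjusted p = 0.0173).

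Little of this was present at 100 ug/mL. Of the 60 tests of 100 against 20 ug/mL, 2 passed, against 0.627% of all gene tests called lower over the 6 extracts. Both were FADS2. It read 209, 214 and 216 CPM at 100 ug/mL of Aconiti, below its 236 to 250 CPM at 20 ug/mL (log2 fold change -0.18). With Yijung-tang it read 257, 242 and 248 CPM against 273 to 297 CPM (-0.17, adjusted p = 0.0162). The Yijung-tang call was lost without 20 ug/mL library 1 (-0.13, adjusted p = 0.271), 100 ug/mL library 2 (-0.15, adjusted p = 0.122) or 100 ug/mL library 3 (-0.17, adjusted p = 0.0656). The other 9 genes differed between these doses by -0.15 to 0.11 on the log2 scale, with none called.

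Bojungikgi-tang, with 1 library at each dose, allows no test. From 20 to 100 and 500 ug/mL, ACSS2 read 123, 121 and 99.3 CPM, FADS2 252, 266 and 223 CPM, and FADS1 234, 234 and 206 CPM. FASN read 1810, 2080 and 1810 CPM, and SREBF1 85.6, 94.3 and 81.8 CPM. The log2 ratio of 500 to 20 ug/mL lay between -0.31 for ACSS2 and 0.01 for ACACB.

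Extracts of the same sample set were compared at 500 ug/mL, in 30 tests of which 17 passed. Citri libraries were higher than Cimicifugae libraries for 6 genes and lower for 2, against 21.2% and 20.6% of all tested genes. The count of 2 lower was no more than the background share. The largest difference was in FADS1, at 221, 219 and 215 CPM for Citri and 181, 173 and 177 CPM for Cimicifugae (log2 difference 0.30, SE 0.041, adjusted p = 2.69e-08). ACACA (0.27), FADS2 (0.26), ACACB (0.25), FASN (0.20) and SREBF1 (0.19) were also higher with Citri, while ELOVL6 (-0.22) and ACLY (-0.09) were higher with Cimicifugae. Only 5 of these 8 calls held without Cimicifugae 500 ug/mL library 1, and 5 without Citri 500 ug/mL library 3. Without the former, SREBF1 stood at 0.16 (adjusted p = 0.114), FASN at 0.16 (adjusted p = 0.137) and ACLY at -0.06 (adjusted p = 0.239). Without the latter, SREBF1 stood at 0.11 (adjusted p = 0.256), FASN at 0.17 (adjusted p = 0.113) and ACLY at -0.08 (adjusted p = 0.114). The ACACB call was lost without Citri 500 ug/mL library 2 (0.18, adjusted p = 0.131). Leaving out Citri 500 ug/mL library 1 ended the ACLY call (adjusted p = 0.0613), as did no filter (adjusted p = 0.301) and only the groups compared (adjusted p = 0.0992), Citri library 2 the FASN call (0.19, adjusted p = 0.072), and Cimicifugae library 3 the FASN (0.19, adjusted p = 0.0873) and SREBF1 calls (0.19, adjusted p = 0.0512). ACSS2 did not pass (-0.02, 95% interval -0.10 to 0.06).

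Bupleuri and Aconiti differed in 2 of the 10 genes, both higher with Bupleuri. Of all tested genes 11.2% were called higher, 12.3% lower and 23.5% in either direction, so the count of 2 was no more than the background share. FADS2 was at 172, 182 and 181 CPM with Bupleuri and 139, 138 and 140 CPM with Aconiti, with no overlap (log2 difference 0.36, SE 0.043, adjusted p = 3.5e-09). SREBF1 differed by 0.21 (adjusted p = 0.0169), a call lost without Bupleuri 500 ug/mL library 1 (0.20, adjusted p = 0.0579), Bupleuri 500 ug/mL library 3 (0.18, adjusted p = 0.0988) or Aconiti 500 ug/mL library 2 (0.18, adjusted p = 0.0884). For SCD the difference was 0.02, with a 95% interval of -0.08 to 0.11, and for ACSS2 0.05, with an interval of -0.03 to 0.14.

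Yijung-tang libraries were higher than Banhasasim-tang libraries for 7 genes, against 6.98% of all tested genes. ACSS2 read 116, 117 and 114 CPM with Yijung-tang and 79, 77.1 and 76 CPM with Banhasasim-tang (log2 difference 0.58, SE 0.041, adjusted p = 1.08e-15). FADS2 (0.37), SCD (0.25), FASN (0.25), SREBF1 (0.21), FADS1 (0.19) and ACLY (0.11) followed. The calls of FASN, SREBF1 and ACLY were each lost without Yijung-tang 500 ug/mL library 1 (0.17, 0.14 and 0.10), Banhasasim-tang 500 ug/mL library 2 (0.21, 0.18 and 0.10) or Banhasasim-tang 500 ug/mL library 3 (0.24, 0.21 and 0.11), which left 4 of 7 calls; adjusted p then lay between 0.0524 and 0.219. The ACLY call was also lost without Yijung-tang 500 ug/mL library 3 (adjusted p = 0.0632) and with no filter (adjusted p = 0.164). With only the groups compared, FASN (adjusted p = 0.0653), SREBF1 (adjusted p = 0.0622) and ACLY (adjusted p = 0.19) were lost.

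**Figure D3:**
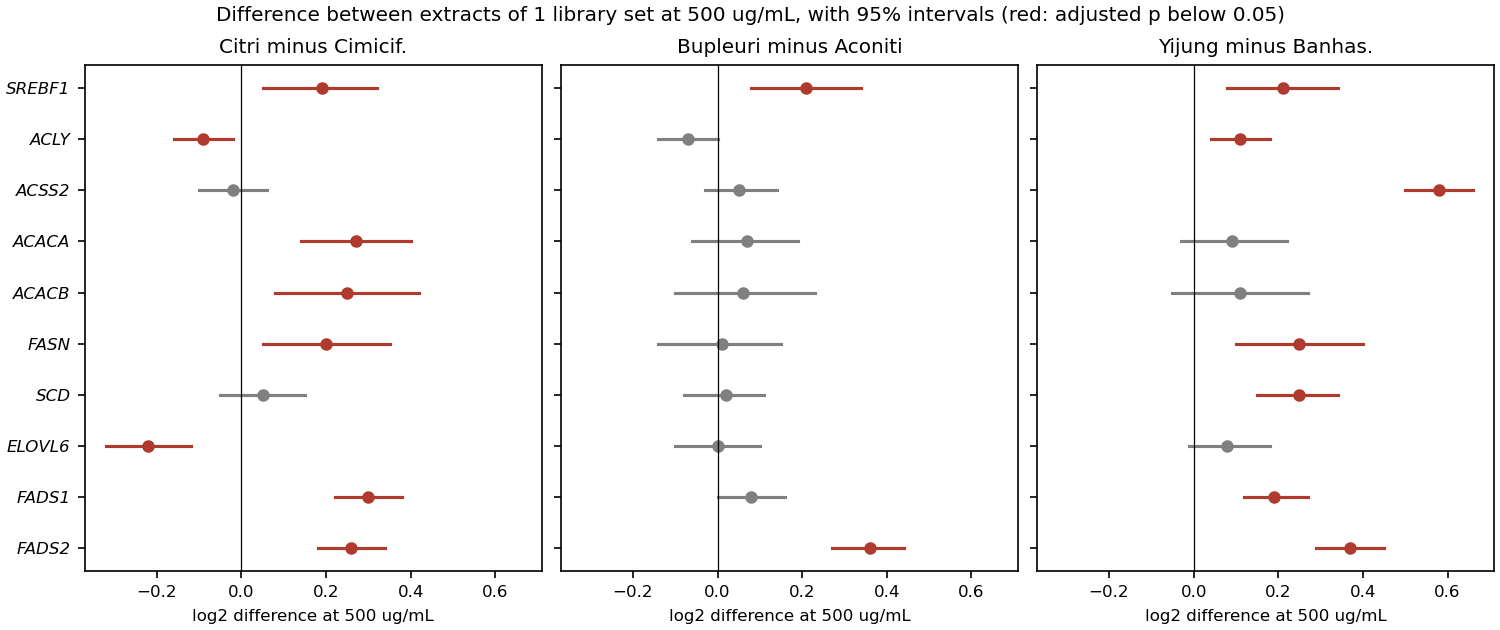
Log2 difference at 500 ug/mL (horizontal axis) of each gene between the extracts of a sample set, as the estimate with its 95% interval; red marks an adjusted p under 0.05. ACSS2 reaches 0.58 between Yijung-tang and Banhasasim-tang and lies near 0 in the other pairs, and FADS2 is above 0 in all 3.

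Whether the 500 against 20 ug/mL change itself differed between extracts of a set was tested as an interaction. Of 30 tests, 7 passed. Between Citri and Cimicifugae 4 genes differed, against 28.2% of all tested genes: ACACA by 0.31 (SE 0.092), FADS1 by 0.29 (SE 0.057) and FADS2 by 0.25 (SE 0.059) fell less with Citri, and ELOVL6 differed by -0.25 (SE 0.07). Between Bupleuri and Aconiti 1 gene differed, against 10.2%: FADS2 fell less with Bupleuri by 0.24 (SE 0.06). Between Yijung-tang and Banhasasim-tang 2 genes differed, against 12.1%: the ACSS2 change was smaller with Yijung-tang by 0.61 (SE 0.058, adjusted p = 2.84e-11) and that of FADS2 by 0.27 (SE 0.059).

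Against vehicle, the 18 comparisons share the same 3 vehicle libraries. Over 180 tests, 44 called a gene higher and 28 lower, against 16.3% and 13.9% of all gene tests. The higher calls lay in SREBF1 and FASN, with 15 of 18 each, FADS2, with 11, ACLY, with 2, and SCD, with 1. At 20 ug/mL, SREBF1, FASN and FADS2 were called higher with all 6 extracts, and ACLY and SCD with Yijung-tang besides; the share of all genes called higher was 11% for Citri, 10.7% for Cimicifugae, 12.6% for Bupleuri, 16.8% for Aconiti, 14.8% for Yijung-tang and 15.3% for Banhasasim-tang. SREBF1 read 61.9, 61.1 and 63.4 CPM in vehicle and 79.1 to 98.5 CPM in the 18 libraries at 20 ug/mL, with no overlap. FASN read 1420, 1380 and 1470 CPM in vehicle and 1730 to 2270 CPM at 20 ug/mL. These are also the genes of highest GC content among the 10, at 63.5% and 65.3%. After removal of the GC trend, the median log2 fold change over the 18 comparisons went from 0.42 to 0.15 for SREBF1, with 10 called higher and 2 lower, and from 0.39 to 0.06 for FASN, with 1 called higher and 2 lower. FADS2, at 57.4% GC, went from 11 higher and 4 lower calls to 4 and 5. The part of GC content in these differences was not tested further, and set and treatment cannot be told apart.

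**Figure D4:**
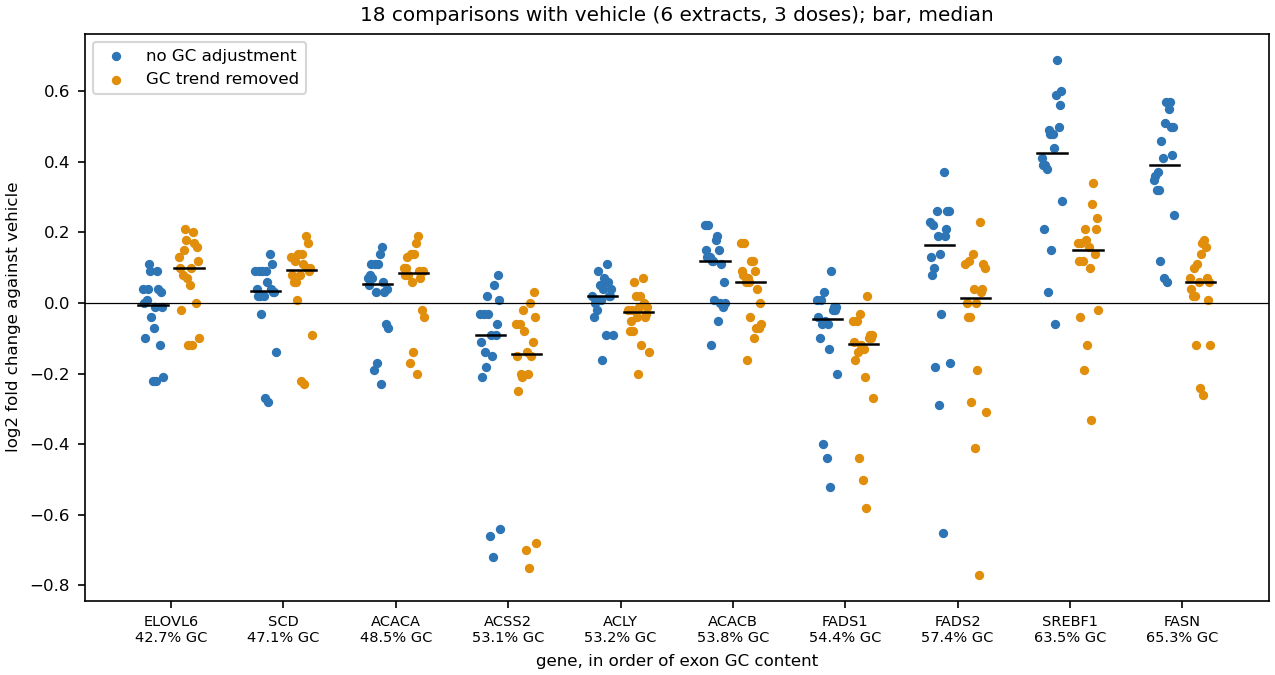
Log2 fold change against vehicle (vertical axis) in 18 comparisons for each gene, ordered by exon GC content, without GC adjustment (blue) and with a per-library GC trend removed (orange); bars are medians. The medians of SREBF1 and FASN drop from 0.42 and 0.39 to 0.15 and 0.06.

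Against vehicle at the top dose, ACSS2, FADS1 and FADS2 were among the genes called lower, whereas SREBF1, FASN and ACACB had 0 lower calls in 18 comparisons. At 500 ug/mL the genes called lower numbered 7 with Aconiti, against 22.9% of all genes, 7 with Bupleuri (16.6%), 6 with Banhasasim-tang (16.2%), 4 with Cimicifugae (22.3%) and 1 with Citri (9.78%), with 0 for Yijung-tang (15.1%). The count of 1 with Citri was near its share. Genes called higher at this dose were SREBF1 and FASN with Citri (0.21 and 0.32), Yijung-tang (0.50 and 0.50) and Banhasasim-tang (0.29 and 0.25), FADS2 with Yijung-tang (0.21) and ACLY with Cimicifugae (0.09). The share of all tested genes called higher was 12.7% for Citri, 17.5% for Yijung-tang, 18.6% for Banhasasim-tang and 23.5% for Cimicifugae. The count of 2 with Banhasasim-tang was near its share, and that of 1 with Cimicifugae was below it. GC removal gave -0.04 for SREBF1 with Citri, and -0.02 and -0.12 for SREBF1 and FASN with Banhasasim-tang. Of 14 alternatives, 5 lost the SREBF1 call with Citri, 7 the ACLY call with Cimicifugae and 0 the SREBF1 call with Yijung-tang. Among lower calls, ACLY with Aconiti and ACACA with Bupleuri were each lost under 6, and ACLY and SCD with Banhasasim-tang under 5. ACSS2 was lower by 0.72, 0.66 and 0.64 on the log2 scale with Aconiti, Bupleuri and Banhasasim-tang, below its 119, 120 and 122 CPM in vehicle, and GC removal gave -0.75, -0.70 and -0.68. FADS1 was lower by 0.52, 0.44, 0.40 and 0.20 with Aconiti, Bupleuri, Cimicifugae and Banhasasim-tang, and FADS2 by 0.65, 0.29, 0.18 and 0.17. GC removal moved FADS2 more than ACSS2, to -0.28 with Cimicifugae and -0.31 with Banhasasim-tang, and ended its higher call with Yijung-tang (0.04, adjusted p = 0.547). Leaving out vehicle library 2, which carried the leukocyte transcripts, left 38 higher and 28 lower calls of 180. The median over the 18 comparisons was then 0.41 for SREBF1, 0.36 for FASN and -0.10 for ACSS2. ACLY and SCD, with 2 and 1 higher calls before, had 0 without that library, and FADS2 had 9 in place of 11.

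Other genes of the pathway were followed as lists, described by their counts at 500 against 20 ug/mL over 6 extracts. The share of all tested genes called higher was 0.727% for Citri, 19.5% for Cimicifugae, 9.9% for Bupleuri, 19.2% for Aconiti, 1.65% for Yijung-tang and 8.59% for Banhasasim-tang. The share called lower was 0.92%, 19.7%, 8.89%, 18.1%, 2.12% and 6.52% in the same order. A list count near these shares is no result about that list. Among 9 cholesterol genes activated by SREBP factors, 35 of 54 tests were called lower and 3 higher. HMGCS1, the synthase that commits acetyl units to sterols, fell by 0.68 with Bupleuri, 0.62 with Aconiti, 0.55 with Banhasasim-tang, 0.32 with Cimicifugae and 0.27 with Citri. SQLE, squalene epoxidase, fell with 4 extracts, by 0.37 to 0.57.

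Of 84 tests on 14 control genes of lipogenic transcription, 9 were called higher and 14 lower. The count of 9 higher was near the share of all tested genes over the 6 extracts. INSIG2, which retains the SREBP escort protein in the endoplasmic reticulum, rose by 0.81 with Cimicifugae, 0.58 with Aconiti, 0.54 with Bupleuri and 0.38 with Banhasasim-tang. MLXIPL, encoding the glucose-responsive factor ChREBP, fell by 0.52 with Aconiti, 0.34 with Bupleuri, 0.31 with Banhasasim-tang and 0.24 with Cimicifugae. RXRA, the partner of LXR, fell with the same 4 extracts by 0.16 to 0.44. SREBF2 fell by 0.22 with Aconiti, 0.19 with Bupleuri and 0.14 with Banhasasim-tang. Among 6 other LXR targets, 4 of 36 tests were called higher and 7 lower, and the count of 4 was again near the share of all tested genes. ABCG8 fell with 4 extracts and rose with Yijung-tang (0.25), and SMPDL3A rose with 3.

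Genes that supply citrate and NADPH were called higher in 15 and lower in 15 of 54 tests. TKT, a transketolase of the pentose phosphate pathway, rose with all 6 extracts by 0.17 to 0.28. IDH1, the cytosolic isocitrate dehydrogenase, fell with 4 extracts by 0.33 to 0.46 and rose by 0.12 with Yijung-tang. Genes of malonyl-CoA use and carboxylase control were called higher in 15 and lower in 5 of 60 tests, and the count of 5 was near the share of all tested genes. CPT1A, which admits acyl chains to mitochondria and is inhibited by malonyl-CoA, rose by 1.01 with Cimicifugae, 0.79 with Aconiti, 0.60 with Bupleuri, 0.48 with Banhasasim-tang and 0.25 with Citri. PRKAA2, a catalytic subunit of the AMP-activated kinase that phosphorylates the carboxylases, rose with 4 extracts by 0.36 to 0.70. MID1IP1, which promotes carboxylase polymerisation, fell with 4 by 0.14 to 0.27.

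Among 13 other elongation and desaturation genes, 17 of 78 tests were called higher and 8 lower, unlike the 0 higher and 37 lower of the 10 genes; the difference between these lists was not tested. FADS3, the third gene of the desaturase cluster, rose by 0.63 with Aconiti, 0.55 with Cimicifugae and 0.37 with Bupleuri. HACD2, a dehydratase of chain elongation, fell by 0.41, 0.27 and 0.20 with Cimicifugae, Aconiti and Bupleuri. Among 16 genes of acyl-CoA activation and esterification, 16 of 96 tests were called higher and 33 lower. GPAM, which starts glycerolipid assembly, fell by 1.02 with Cimicifugae, 0.75 with Aconiti, 0.59 with Bupleuri, 0.58 with Banhasasim-tang and 0.17 with Citri. DGAT2, which makes triglyceride, fell with 4 extracts by 0.43 to 0.87. PLIN2, the coat protein of lipid droplets, rose by 1.27 with Aconiti, 0.65 with Cimicifugae, 0.45 with Banhasasim-tang and 0.39 with Bupleuri.

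**Figure D5:**
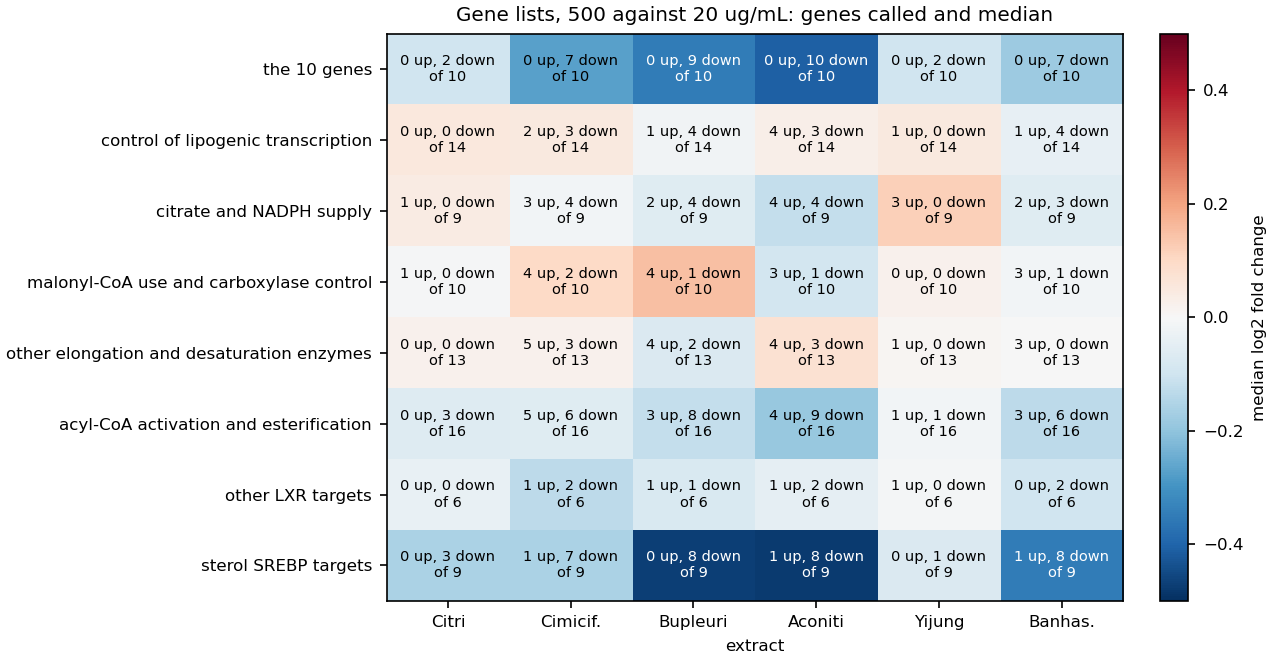
Gene lists (rows) at 500 against 20 ug/mL for 6 extracts (columns); each cell gives the genes called higher (up) and lower (down) of those tested, and colour is the median log2 fold change. The 10 genes and the sterol targets are the lists with most lower calls, 37 of 60 and 35 of 54.

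Nuclear-retained RNAs and replication histone genes, which can mark RNA quality, moved in the extracts with many calls. Of 10 such genes, 4 were called higher with Cimicifugae and 4 with Aconiti. Their summed level was 1570 to 1640 CPM at 500 and 1280 to 1350 CPM at 20 ug/mL of Cimicifugae, and 1360 to 1530 against 1100 to 1260 CPM with Aconiti. Banhasasim-tang and Bupleuri had 0 and 1 called higher and overlapping sums. Over all replicated extracts, 9 of 60 tests on this list were called higher and 4 lower. Of 8 markers of other cell types, 5 were tested, with 8 of 30 tests called higher and 7 lower. Their summed level with Aconiti was 83 to 85.7 CPM at 500 and 60.6 to 62.3 CPM at 20 ug/mL, and CD68 at 31.1 to 70.8 CPM over all libraries made up most of it. PTPRC, CD3E and COL3A1 were at 0 in 56, 57 and 41 of 60 libraries. Of 8 hepatocyte markers, 12 of 48 tests were called lower and 3 higher. The part of these lists in the falls of the 10 genes was not tested.

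Patterns over the 19 replicated groups were compared as correlations of group mean log2 CPM, which share libraries' sets and the vehicle and are given as a description. Among the 10 genes, FADS1 and FADS2 (r = 0.94), SREBF1 and FASN (r = 0.93) and ACSS2 and SCD (r = 0.92) were most alike, and ACACB and ELOVL6 least (r = 0.19). Over 10189 other protein-coding genes with a mean of at least 5 CPM, genes most like FADS2 included ZFTA (r = 0.982) and TM7SF2 (r = 0.972). For FADS1 they were SQLE (r = 0.971), TMEM97 (r = 0.966) and C1orf115 (r = 0.954), and for ACSS2 FDFT1 (r = 0.959), HMGCS1 (r = 0.957) and ERG28 (r = 0.955). SCD was most like LSS (r = 0.921), SREBF1 like EFNB1 (r = 0.953), FASN like BAHD1 (r = 0.939), ACACA like CHD4 (r = 0.945) and ACACB like CNOT1 (r = 0.927). ACLY and ELOVL6 had no neighbour as close, with DHCR7 at 0.814 for ACLY and ACSS2 at 0.806 for ELOVL6.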

How the data were processed

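Gene-level expected counts from RSEM were deposited by the authors as 1 table of the series, and 207 of its columns belong to no sample described here and were not used. Per the submitters' processing notes, the tools were FastQC 0.11.9, Trim Galore 0.6.5, STAR 2.7.3a and RSEM 1.3.3 on GRCh38; the annotation release and the strand setting are not given in the sources used here. RNA had an integrity number above 7 and libraries were made with a directional kit, per the labels' protocols. The expected counts, of which 24.5% of nonzero values were not whole, were rounded. Gene coordinates, exon lengths and GC content came from GENCODE 29, which holds 57055 of the 60675 identifiers; the other 3620 carried 0.0398% of counts.

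The 57 libraries of 19 groups were fitted together with edgeR 4.0.16 in R 4.3.3 (filterByExpr, TMM, quasi-likelihood F-test, Benjamini-Hochberg adjustment over 16093 genes in each comparison, threshold 0.05). SE is the log2 fold change over the square root of F. CPM are TMM-scaled. Library totals ran from 17598646 to 30451640 counts; counting intervals would not cover variation between cultures. Alternatives were DESeq2 1.42.0 and its size factors, other filters, a replicate block, a GC trend removed per library, only the groups compared, and each library left out. The fit and the GC removal were tested on simulated data. Replicate pairs differed by more than sampling noise (chi-square per degree of freedom 2.58 to 18.68), so none was merged.

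Named genes are the 10 genes, per list up to 3 called genes of smallest p per extract, and the 3 genes most like each of the 10; genes beyond these were chosen after their values were seen; a few genes picked this way are not reported here. The members and lists were chosen with earlier results of these data known. Wortmannin, named in the series text, was not analysed here.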

Additional observations from a re-analysis of the deposited data

Results flagged for a closer look

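In 7 cases the change from 20 to 500 ug/mL differed between extracts of 1 sample set by the interaction test (edgeR, adjusted over all 16093 genes). As the log2 change with the first extract minus that with the second, Citri against Cimicifugae gave 0.31 for ACACA (adjusted p = 0.00797), -0.25 for ELOVL6 (adjusted p = 0.00452), 0.29 for FADS1 (adjusted p = 5.72e-05) and 0.25 for FADS2 (adjusted p = 8.13e-04). Bupleuri against Aconiti gave 0.24 for FADS2 (adjusted p = 0.00454). Yijung-tang against Banhasasim-tang gave 0.61 for ACSS2 (adjusted p = 2.84e-11) and 0.27 for FADS2 (adjusted p = 9.2e-04). Of all tested genes, 28.2% were called for Citri and Cimicifugae, 10.2% for Bupleuri and Aconiti, and 12.1% for Yijung-tang and Banhasasim-tang. The 1 of 10 genes called for Bupleuri and Aconiti was no more than that share. FADS2 was the only one of the 10 genes called in all 3 pairs. Each group had 3 libraries, too few for a test of single outlying libraries.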

How the results depend on the processing

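Counts of calls over the 10 genes moved little with most choices, though the calls behind a count could change. For 500 against 20 ug/mL the count of 37 was 33 to 44 over 8 alternatives and 35 to 38 with single libraries left out, and against vehicle the count of 72 was 62 to 83 and 65 to 75. With the GC trend removed, 44 higher and 28 lower calls against vehicle became 26 higher and 36 lower. There, 26 calls were lost and 18 gained without a change of sign. The 2 calls at 100 against 20 ug/mL became 4 with a GC trend removed, 4 with that and a replicate block, 1 with only the groups compared, and 1 to 2 with libraries left out. The number of Citri calls at 500 against 20 ug/mL, 2, was 1 with no filter, where ACSS2 and FADS2 were lost and SREBF1 gained, 4 with block and GC removal, 1 with only the groups compared, and 0 to 1 with libraries left out. The 2 Yijung-tang calls became 4 with block and GC removal, 0 with only the groups compared, and 1 to 3 with libraries left out. At 500 ug/mL, libraries left out gave 5 to 8 calls for Citri minus Cimicifugae, 1 to 2 for Bupleuri minus Aconiti and 4 to 7 for Yijung-tang minus Banhasasim-tang, the last 4 with only the groups compared. With only the groups compared, all genes called at 500 against 20 ug/mL fell from 607 to 135 for Yijung-tang and from 2433 to 1451 for Banhasasim-tang; with the GC trend removed they went from 265 to 423 for Citri. The causes were not tested.

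Against vehicle, removing the GC trend turned the sign of 8 log2 fold changes with a call before or after removal. FADS2 turned with Citri at 100 ug/mL (0.00) and Aconiti at 20 ug/mL (0.00). At 500 ug/mL, SREBF1 turned with Citri (-0.04), Cimicifugae (-0.19) and Banhasasim-tang (-0.02). FASN turned at 500 ug/mL with Bupleuri (-0.24), Aconiti (-0.26) and Banhasasim-tang (-0.12). Another 26 of 180 turned sign with no call before or after removal. With the replicate block besides, FASN with Aconiti was -0.25 and SREBF1 with Bupleuri was -0.12.

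The replicate block alone gave 39 calls at 500 against 20 ug/mL and 79 against vehicle. Deviations of same-numbered libraries of a set correlated over 0.1 in 83 of 135 pairs (median r 0.15), against 41 of 270 pairs with different numbers (median r -0.07). Libraries of a set thus shared some deviation by number, but not every pair did (lowest r -0.2) and the labels give no pairing, so the block was kept as an alternative. In set 7, library 1 had the highest FASN and SREBF1 level in 6 of 6 groups, a pattern chosen after the values were seen.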
